A study of Homo sapiens with 24 samples.

Results

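The growth of the response to 5-FdU-ECyd between 6 h and 12 h was measured in A2780cis cells, the platinum-resistant line of the study. The 12 A2780cis libraries, of 24 libraries in all, were taken by cell line. They form 4 groups of 3: untreated cells that received fresh medium and cells exposed to 1 μM 5-FdU-ECyd, each collected after 6 h and after 12 h. A2780cis is a derivative of the ovarian carcinoma line A2780 selected with cisplatin, and its resistance was kept up in the study by recurrent passages with 1 μM cisplatin, a history that all 4 groups share. The cells are 1 selected derivative and not a panel of resistant tumours. The study calls its triplicates biological, while the labels do not say that they came from separate cultures, and if they did not, the p-values measure only the spread between these samples, which may be technical. The other 12 libraries are of the sensitive parental line A2780, with the same 4 groups, and served to estimate the spread and to test whether growth differed between the lines.

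5-FdU-ECyd joins 2 antimetabolites in 1 molecule. 5-fluorodeoxyuridine is known to block thymidylate synthase and so the supply of thymidine for DNA, and ethynylcytidine is known to hinder RNA synthesis. A cell whose DNA or RNA synthesis is disturbed stabilizes the transcription factor p53, which turns on genes for cell cycle arrest and apoptosis. Short-lived transcripts follow a change in transcription within a short time, long-lived ones only later, so that a pair of time points can show different genes.

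With the treatment effect E6 at 6 h and E12 at 12 h, both as the log2 fold change (log2 FC) of treated against untreated cells of the same time, growth is E12 minus E6. Each time has its own controls. Levels are read counts scaled to the library total with TMM factors (CPM). They are shares of the counted RNA, so that higher and lower below are relative, and the amount of RNA per cell is not shown. Genes are called at a Benjamini-Hochberg adjusted p of at most 0.05, over the 20240 genes tested, in the quasi-likelihood test of edgeR, and every adjusted p below comes from this test.

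The library totals ranged from 11077368 to 21901406 counts, the largest being replicate 3 of the cells treated for 6 h. That library also stood apart in short structural RNAs: 5S rRNA genes took 3.57e-04% of its counts, against 0.0286% and 0.0390% in the other 2 of its group. Marker levels are CPM of the library total without TMM factors, since most markers were too low to be tested. Of 10 epithelial and ovarian carcinoma markers, KRT18 (18.5 to 29.2 CPM) and KRT8 (3.68 to 6.92 CPM) were present over the 12 libraries. EPCAM had 0.0691 to 1.17 CPM and was called as late (growth 2.58), KRT7 had no count, and PAX8, WT1, CDH1, KRT19, MUC16 and ESR1 did not exceed 0.198 CPM, so that markers of ovarian epithelium were largely missing. The 8 fibroblast markers summed to 1690 to 2020 CPM in the controls of 6 h, 1530 to 1810 CPM after treatment, 1900 to 2250 CPM in the controls of 12 h and 1460 to 1640 CPM after treatment, nearly all of it from COL3A1, a called decrease at both times (-0.26 and -0.58). The 8 leukocyte markers summed to 5.46 to 8.14 CPM, with CD68 as their main source, and the 6 endothelial ones to at most 0.334 CPM in controls and 0.445 to 1.19 CPM after treatment. What part these markers have in any result was not tested.

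The response grew for many genes and waned for few. Growth was called for 4852 genes (24% of those tested), 2093 of them upward (10.3%) and 2759 downward (13.6%), and the share of upward calls, 43.1%, was 30.3% without a filter on low counts and 52.5% (3356 up, 3042 down) in a fit with a GC curve per library, described with the GC shares. The effect of treatment itself was called for 6212 genes at 6 h (30.7%, 14.4% higher and 16.3% lower) and 12127 at 12 h (59.9%, 31% higher and 28.9% lower), and the median absolute log2 FC of all genes was 0.32 at 6 h and 0.56 at 12 h. Of the 4852, 2705 were late, that is called at 12 h and not at 6 h, and 1675 were amplified, called at both times in 1 direction and larger at 12 h. An early transient course, called at 6 h, not at 12 h and with a called change back, was found for 262 genes. In 31 the effect receded but was still called at 12 h, in 87 it reversed its sign, and in 92 growth alone was called (0.138% upward and 0.316% downward). A further 3394 genes were sustained, with called effects of 1 direction at both times and no called growth. Effects called at 12 h alone without called growth were found upward in 2552 (12.6%) and downward in 1683 genes (8.32%), and effects called at 6 h alone without a called decline in 506 (2.5%) and 257 (1.27%). All treated libraries lay above all controls in 21.1% of the genes at 6 h and 30.1% at 12 h, and below them in 22.1% and 29.4%.

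**Figure D1:**
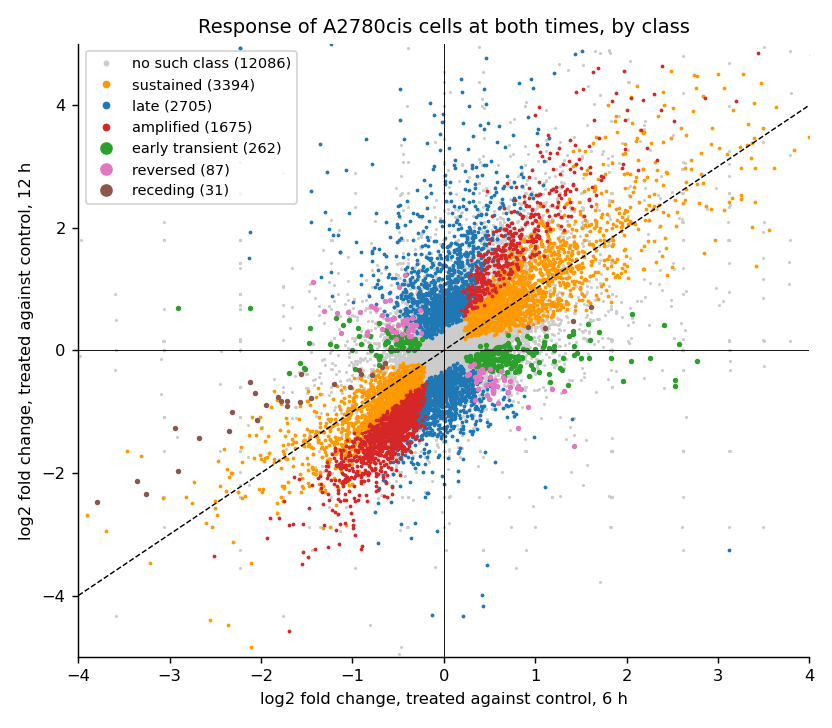
Log2 fold change of treated against untreated A2780cis cells at 6 h (horizontal axis) and 12 h (vertical axis), 1 point per gene, coloured by class. The dashed line marks equal effects. The 2705 late genes lie above and below the centre, the 1675 amplified genes on the steep side of the line, and the 262 early transient genes along the horizontal axis; 162 genes lie outside the axes.

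A change of the response can come from treated or from untreated cells. Untreated cells changed between 6 h and 12 h as well, with 8083 genes called (39.9%, 18% up and 21.9% down), and treated cells with 9977 (49.3%, 24.2% up and 25.1% down). Of the 2093 genes with upward growth, only treated cells had a called change over time in 1104, only untreated cells in 587, both in 306 and neither in 96. Of the 2759 with downward growth these numbers were 1165, 693, 857 and 44. The median change of the upward genes was 0.57 in treated and -0.33 in untreated cells, and that of the downward genes -0.66 and -0.01 (log2).

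**Figure D2:**
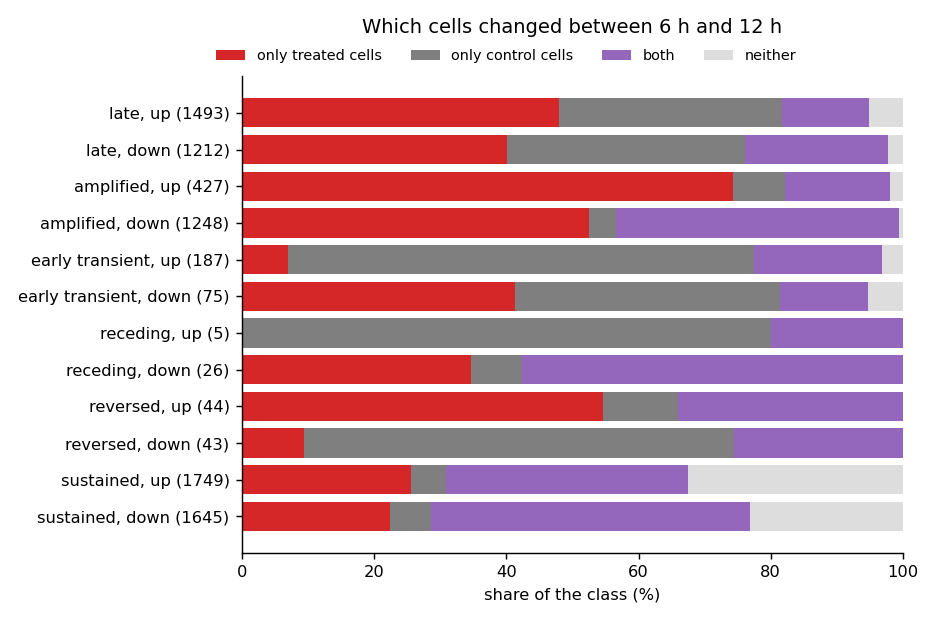
Share of each class (horizontal axis, %) in which only treated cells, only untreated cells, both or neither had a called change from 6 h to 12 h, with the number of genes in brackets. In 132 of the 187 early transient upward genes only the controls changed, while in 317 of the 427 amplified upward genes only the treated cells did.

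The GC share of the counted transcripts moved with time and treatment. Weighted by counts, the mean GC share of the longest transcript of protein-coding genes was 45.7% to 45.9% in the controls of 6 h, 46.1% to 46.8% after 6 h treatment, 46.8% to 47.8% in the controls of 12 h and 47.4% to 48.2% after 12 h treatment. With protein-coding genes in 5 classes of equal size by GC share, those of the richest class, at least 58.4% GC, took 4.70% to 5.14%, 5.51% to 7.19%, 7.78% to 10.8% and 8.61% to 11.6% of the counts in these groups. In that class the median log2 change of untreated cells from 6 h to 12 h was 0.81, and the median effect of treatment 0.35 at 6 h and 0.07 at 12 h. In the GC-poorest class these medians were -0.37, -0.16 and -0.23. An alternative fit, added after the data were seen, took off a curve of each library's deviation against GC. It left 4676 of the 4852 growth calls in their direction and called 6398 genes in all, and its calls for untreated cells fell to 2768. Of the sustained genes, 1289 of the 1749 upward and 1057 of the 1645 downward ones were sustained there too. Its counts are given with the other classes, and named genes whose class it changed are described with their values. Since such a curve also takes off any part of the treatment effect that goes with GC, neither fit was taken as the true one.

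**Figure D3:**
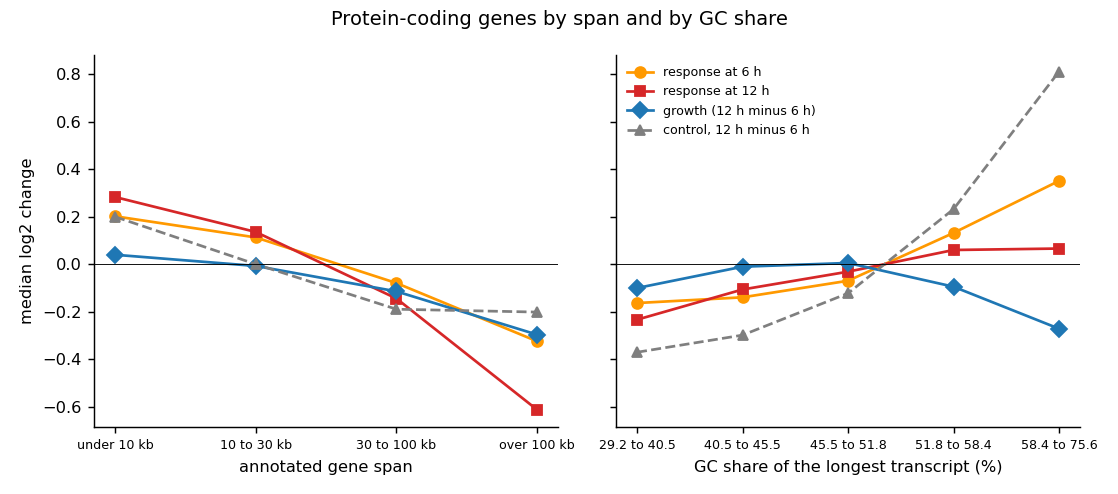
Median log2 change (vertical axis) of protein-coding genes by annotated gene span (left) and by 5 classes of GC share (right), for the response at 6 h, the response at 12 h, their difference and the untreated cells of 12 h against 6 h. Genes over 100 kb have the lowest medians at both times, and in the GC-richest class the untreated cells have the highest median, 0.81.

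Late responses made up 1493 upward (7.38% of the genes tested) and 1212 downward genes (5.99%). Of the upward ones 886 were protein-coding and 298 lncRNA genes, with a median E6 of 0.01 and E12 of 0.86. The 3 genes named by the largest growth among expressed genes with separate libraries were INAFM2, ARSD and TLCD1, and of a list of immediate early genes ATF3 had the smallest p.
ATF3 (ENSG00000162772.16, chromosome 1 from 212565334 to 212620777 on the plus strand of GRCh38), a transcription factor induced by stress, had 1.85, 1.71 and 0.818 CPM in the controls of 6 h and 1.83, 2.04 and 2.21 CPM after treatment. At 12 h it had 0.963, 1.63 and 1.62 CPM in the controls and 12.1, 10.3 and 13.4 CPM after treatment. The groups overlapped at 6 h and lay far apart at 12 h, and growth was 2.58 (standard error 0.34, adjusted p = 1.06e-05, edgeR).
TLCD1 (ENSG00000160606.10, chromosome 17 from 28724348 to 28727935, minus strand) likewise had 26.6, 21.1 and 24.4 against 24.1, 27.2 and 26.9 CPM at 6 h, and 21.96, 20.4 and 21.3 against 71.3, 62.9 and 81.0 CPM at 12 h. Its growth was 1.64 (standard error 0.16). In ARSD, which encodes an arylsulfatase, the controls of 12 h had 4.21 to 5.18 CPM and the treated libraries 17.6 to 19.8 CPM, with growth of 1.66. INAFM2 grew by 1.74, from controls that fell over time by 0.80 on the log2 scale.

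The late downward genes named by the rule looked different. CLUH, which encodes a protein that binds mRNAs for mitochondrial proteins, had 50.2, 45.5 and 39.5 CPM in the controls of 6 h, 87.6, 123 and 159 CPM in those of 12 h, 48.7, 56.0 and 68.7 CPM after 6 h treatment and 40.6, 69.3 and 42.4 CPM after 12 h. Its controls rose by 1.45 (log2) and the treated cells had no called change (-0.19, adjusted p = 0.49, edgeR), which gave a growth of -1.64 (standard error 0.31). MIIP, with controls that rose by 1.58, and HSPA1B, a heat-inducible HSP70 gene, with controls that rose by 1.28, followed the same course. The rise of these controls was smaller with the GC curve taken off, 0.45 for CLUH, 0.48 for MIIP and 0.72 for HSPA1B, though still called, and growth there was -1.25, -1.23 and -1.37 (all called, edgeR). Over all 1212 late downward genes, a change over time was called only in treated cells in 485, only in controls in 438 and in both in 262. After removal of the GC curve, 929 of the 1212 and 1279 of the 1493 upward genes were still late.

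Amplified responses were mostly decreases: 1248 genes went further down (6.17%) and 427 further up (2.11%). The downward genes moved from a median log2 FC of -0.54 at 6 h to -1.27 at 12 h and had a median span of 89.6 kb, and the upward genes from 0.71 to 1.63 with a median span of 15.8 kb. HSPA8 (ENSG00000109971.13, chromosome 11 from 123057489 to 123063230, minus strand), which encodes the constitutive HSP70 chaperone, had 7448, 6384 and 8214 CPM in the controls of 6 h and 4186, 3584 and 3504 CPM after treatment. At 12 h it had 5550, 4486 and 4301 CPM in the controls and 636, 503 and 641 CPM after treatment. No libraries overlapped at either time, and the log2 FC went from -0.97 to -3.01 (growth -2.04, standard error 0.17, adjusted p = 5.81e-08, edgeR).
HES2 (ENSG00000069812.11, chromosome 1 from 6412418 to 6424670, minus strand), which encodes a repressor of the hairy and enhancer of split family, had 0.602 to 1.31 CPM in the controls of 6 h and 1.24 to 1.88 CPM in those of 12 h. Treated libraries had 5.10, 5.40 and 5.65 CPM at 6 h and 38.5, 36.1 and 39.2 CPM at 12 h. Its growth was 2.25 (standard error 0.29). FAM228B and KCTD11 grew by 2.03 and 1.99, and the further decreases named beside HSPA8 were those of TLN2, the talin 2 gene of focal adhesions, and PLK1, with growth of -1.78 and -1.76. Of the 1248 and 427 genes, 1074 and 395 were amplified also with the GC curve taken off, which put 906 genes into the upward class.

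Early transient responses were rare. Of 187 upward genes (0.924%), 132 had a called change over time in the controls alone and 13 in the treated cells alone, and their median GC share was 59.7%, against 48.0% over all genes tested. CORO1B (ENSG00000172725.13, chromosome 11 from 67435510 to 67443821, minus strand), which encodes the actin-binding protein coronin 1B, had 15.2, 11.5 and 15.5 CPM in the controls of 6 h and 19.5, 24.8 and 30.2 CPM after treatment. At 12 h the controls had 36.1, 47.3 and 55.5 CPM and the treated libraries 30.9, 43.0 and 35.5 CPM. Both arms were higher at 12 h, the controls by 1.71 and the treated cells by 0.54 (log2), and the effect went from 0.82 to -0.34 (growth -1.17, standard error 0.30, adjusted p = 0.00681, edgeR). FAM174C was alike, with controls that rose by 2.27. Without the GC curve's part the controls of CORO1B rose by 0.69 and those of FAM174C by 1.36, and growth was -0.77 and -1.01 (all called, edgeR). CDK3, a kinase of the cell cycle, differed in that its treated libraries fell, from 11.2, 15.3 and 12.8 CPM to 5.21, 7.06 and 10.4 CPM, while its controls had 5.11 to 8.26 CPM at 6 h and 9.87 to 10.5 CPM at 12 h. In the fit with the GC curve, 113 of the 187 kept this class, and CDK3 and CORO1B became reversed, with E12 of -0.42 and -0.26. The number moved also with single libraries: it was 62 without replicate 3 of the cells treated for 6 h, 98 without replicate 3 of the controls of 12 h, between 111 and 119 without replicate 2 or 3 of the controls of 6 h, replicate 2 of the cells treated for 6 h or replicate 1 of those treated for 12 h, and 281 without replicate 2 of the last group.

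The 75 early transient downward genes (0.371%) included genes whose treated cells recovered. TMEM203 (ENSG00000187713.6, chromosome 9 from 137204082 to 137205648, minus strand), which encodes a membrane protein of the endoplasmic reticulum, had 18.5, 17.9 and 19.9 CPM in the controls of 6 h and 5.90, 6.13 and 6.74 CPM after treatment. At 12 h it had 20.7, 21.7 and 19.7 CPM in the controls and 17.1, 17.6 and 18.9 CPM after treatment. The treated libraries of 12 h still lay below their controls, without a called effect (-0.21, adjusted p = 0.0575, edgeR), and the treated cells alone had a called change between the times. Under the GC curve the effect at 12 h was called (-0.22, adjusted p = 0.0196, edgeR), so that the course was receding. XRCC3, a gene of homologous recombination, had 16.6 to 21.4 CPM in the controls and 7.25 to 11.5 CPM in the treated libraries of 6 h, and overlapping values at 12 h (30.7 to 42.3 and 27.6 to 44.4 CPM). Both arms rose over time, the treated one more. ZFTRAF1 did the same, with E6 of -0.80 and E12 of 0.06, and lost its call in 3 of the 12 fits that left out a library. Of the 75, the treated cells alone had a called change in 31 and the controls alone in 30. The count was 37 without replicate 3 of the controls of 6 h, 44 without replicate 3 of the cells treated for 6 h, and 151 with the GC curve taken off.

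Receding and reversed courses were the smallest classes. Of 26 receding downward genes (0.128%), NACC2 (ENSG00000148411.7, chromosome 9 from 136006537 to 136095289, minus strand), which encodes a transcriptional repressor with a BTB domain, fell most at 6 h: its controls had 18.2, 26.7 and 20.4 CPM and its treated libraries 1.04, 1.46 and 1.98 CPM. At 12 h they had 26.8, 33.2 and 38.6 against 5.40, 6.78 and 5.61 CPM. The effect was -3.80 and then -2.47, with growth of 1.33 (standard error 0.30, adjusted p = 0.00257, edgeR). TMEM250 and RTL6 receded by 1.37 and 1.18. Also under that curve 23 of the 26 were still receding, among 78 such genes. Of 5 receding upward genes (0.0247%) only MYRF and ABHD11 met the rule for naming, and both lost the called growth there (-0.45, adjusted p = 0.0631, and -0.30, adjusted p = 0.145, edgeR). ABHD11 lost it also in 10 of the 12 fits without a library, and MYRF in 1.
Reversed upward genes (44, or 0.217%) were lower at 6 h and higher at 12 h. TLNRD1, which encodes an actin-bundling protein, had 12.8, 15.8 and 13.6 CPM in the controls of 6 h and 6.06, 6.57 and 6.64 CPM after treatment, and at 12 h 14.3, 15.2 and 15.2 against 15.9, 21.4 and 17.1 CPM. Its controls stayed within 12.8 to 15.8 CPM at both times, while the treated libraries went from below them to above them, by a growth of 1.41 (standard error 0.18). JRKL and KRCC1 had growth of 1.66 and 1.44, and JRKL lost its call at 6 h under the GC curve (-0.27, adjusted p = 0.128, edgeR). Among the 43 reversed downward genes (0.212%), the controls alone had a called change in 28. HSPA1A had 24.03, 19.4 and 26.7 CPM in the controls of 6 h, 29.7, 39.9 and 53.1 CPM after treatment, 68.3, 98.5 and 120 CPM in the controls of 12 h and 31.2, 53.6 and 33.4 CPM after treatment. HSPA1A and HSPA1B are nearly identical in sequence. The study counted reads with several alignments in fractions, so that reads shared by the 2 genes were split and their courses are not independent. SLC27A3, a fatty acid transport gene, and GNB3, a G protein subunit, had growth of -1.46 and -1.39. SLC27A3 lost its call at 6 h under the GC curve (0.33, adjusted p = 0.109, edgeR) and was late there. Under the GC curve 19 of the 43 kept the class, and single libraries moved the number between 13, without replicate 3 of the cells treated for 6 h, and 77, without replicate 2 of those treated for 12 h.

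Sustained responses comprised 1749 upward (8.64%) and 1645 downward genes (8.13%). A call that growth misses does not show that effects were alike: for 1147 of the 3394 the 95% interval of growth lay within a 1.5-fold change in either direction (0.585 on the log2 scale), and for the rest it reached further. BTG2 (ENSG00000159388.5, chromosome 1 from 203305491 to 203309602, plus strand), an antiproliferative p53 target, had 20.5, 21.7 and 22.2 against 151, 144 and 156 CPM at 6 h and 20.6, 20.6 and 23.6 against 213, 194 and 199 CPM at 12 h. The controls stayed level and the treated libraries were high at both times, with log2 FC of 2.81 and 3.23 and a growth of 0.42 (95% interval 0.08 to 0.75, adjusted p = 0.0621, edgeR). In the GC-corrected fit that growth was called (0.42, adjusted p = 0.0185, edgeR), as was that of PAQR6 (1.19) and of TNFRSF14 (1.35), so that the 3 increases named by the rule counted as amplified there.
SLC19A1 (ENSG00000173638.18, chromosome 21 from 45493572 to 45573365, minus strand), the reduced folate carrier, had 25.5, 23.2 and 24.1 against 2.15, 3.797 and 4.48 CPM at 6 h and 40.8, 48.7 and 62.6 against 7.18, 11.4 and 8.54 CPM at 12 h. Both arms rose over time and the effect was -2.76 and -2.48, with growth of 0.27 (95% interval -0.34 to 0.89), or 0.65 and called with the GC curve taken off (adjusted p = 0.00334, edgeR). SOX8, a transcription factor of the neural crest, and VAV2, a guanine nucleotide exchange factor, were lower at both times with growth of -0.22 (95% interval -0.68 to 0.24) and -0.07 (95% interval -0.61 to 0.48). Both signs turned under the GC curve (0.19 and 0.17).

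**Figure D4:**
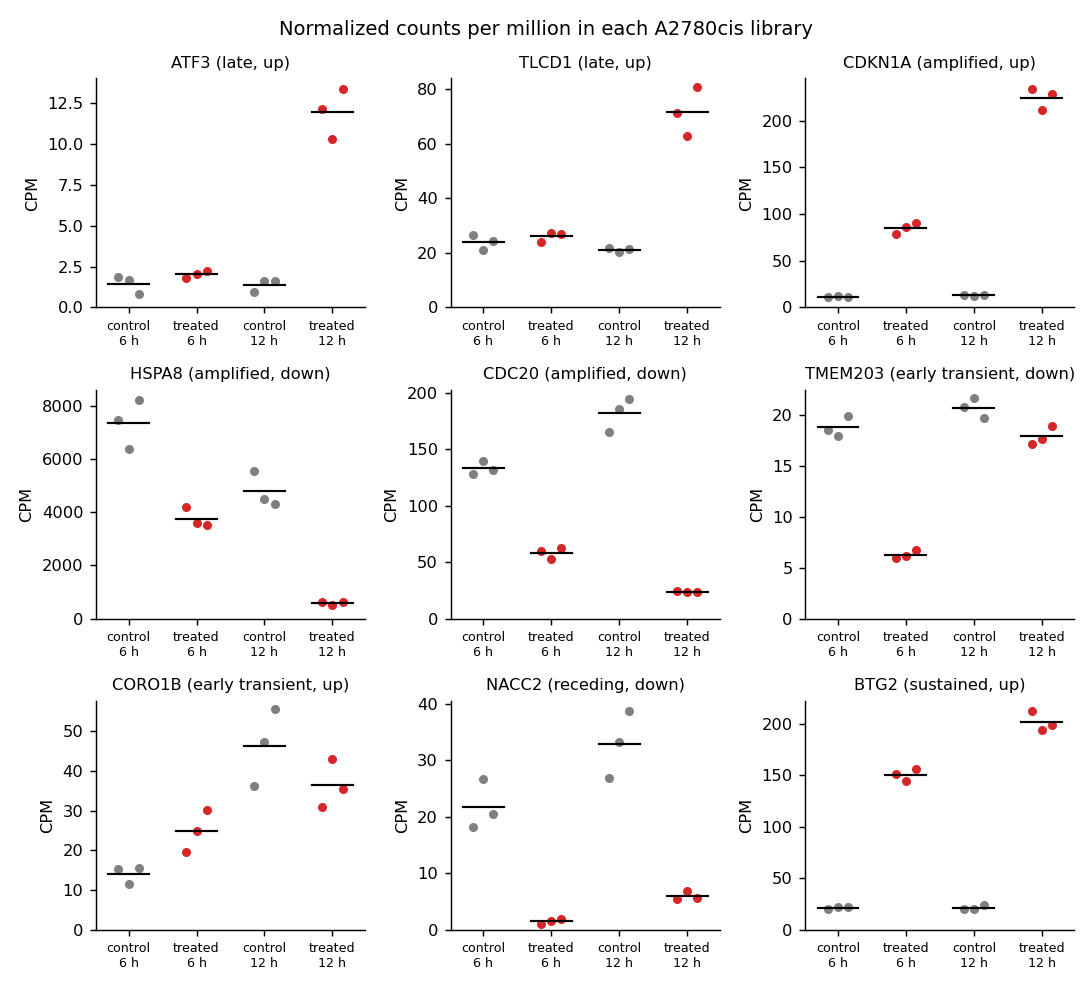
CPM (vertical axes, from 0) of 9 genes in each of the 12 A2780cis libraries, by group, with the mean of 3 as a bar. ATF3 and TLCD1 separate at 12 h, CDKN1A, HSPA8 and CDC20 separate further, TMEM203 and NACC2 approach their controls, CORO1B rises in untreated cells, and BTG2 is high at both times.

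Counts in the gene lists below stand beside the shares of all genes tested. These were 14.4% higher and 16.3% lower at 6 h, 31% and 28.9% at 12 h, and 10.3% and 13.6% for upward and downward growth. Genes that p53 is known to activate were mostly higher already at 6 h. Of 37 tested, 31 rose at 6 h and 34 at 12 h, none fell at either time, by edgeR, by DESeq2 or at an unadjusted p under 0.05 (0 each), and growth was called upward for 18 (48.6%) and downward for 1. Their median log2 FC went from 1.02 to 1.48, against 0.00 and 0.04 over all genes tested, and 17 were amplified and 13 sustained. CDKN1A (ENSG00000124762.13, chromosome 6 from 36676460 to 36687337, plus strand), the gene of the cell cycle inhibitor p21, had 11.6, 12.2 and 11.2 against 78.5, 85.9 and 90.0 CPM at 6 h and 12.9, 12.0 and 13.7 against 234, 211 and 229 CPM at 12 h. Its controls stayed level while treated libraries climbed again, by a growth of 1.26 (standard error 0.16, adjusted p = 7.31e-06, edgeR). GADD45A, a growth arrest gene, had 21.2 to 22.7 CPM in treated libraries of 6 h and 49.1 to 53.03 CPM in those of 12 h, with growth of 1.08 (standard error 0.21). TP53I3, which encodes a quinone oxidoreductase, and TNFRSF10D, a decoy receptor for the death ligand TRAIL, had growth of 1.70 and 1.09.
The sustained members included the feedback regulator MDM2 (0.78 and 0.72), BAX (1.02 and 0.82), BBC3 (2.55 and 2.25), FDXR (1.66 and 1.64) and PIDD1 (2.29 and 2.30). The nuclease gene AEN was early transient (0.49 and -0.01). APAF1, which encodes the scaffold of the apoptosome, was late (0.26 and 0.92). TP53INP1 and PPM1D were called at neither time.

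Immediate early genes, whose transcripts respond within minutes to many stimuli, did not fade as a group by 12 h. Of 41 tested, 26 rose and 6 fell at 6 h, 31 rose and 7 fell at 12 h, growth was called upward for 15 and downward for 1, and the median went from 0.81 to 1.23. GADD45B had 36.4, 38.7 and 42.5 CPM in the treated libraries of 6 h and 71.3, 80.3 and 87.2 CPM in those of 12 h, over controls of 17.6 to 25.4 CPM. Its growth was 1.03 (standard error 0.17). Amplified members also included FOSB (1.72 and 2.78), FOSL1 (1.96 and 3.05), NR4A3 (1.04 and 3.98) and DUSP1 (0.83 and 1.87), while EGR1 (1.11 and 1.03), JUNB (1.70 and 1.95) and ARC (1.79 and 1.49) were sustained. SRF was the only early transient member (0.45 and -0.03).

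Genes of mitosis and the G2/M transition fell together and further. Of 50 tested, 46 fell at 6 h and 49 at 12 h, and growth was called downward for 34. None rose and none grew upward by edgeR, by DESeq2 or at an unadjusted p under 0.05 (0 each), and the median log2 FC was -0.84 and then -1.56. In RNA from a whole culture, fewer cells in a phase of the cycle and less RNA per cell cannot be told apart. Many genes of this group share promoter elements: the cell cycle genes homology region, TTTGAA, and CCAAT boxes bound by NF-Y. In RefSeq promoters of GRCh38.p14, 250 bases before to 50 after the start, TTTGAA on either strand was present in 31 of the 44 members with an entry (70.5%), in 15.4% of all 27305 promoters and in 10.1% of those of the 12062 tested genes with an entry. CCAAT was present in 35 of the 44 (79.5%), against 35.7% of all, and both in 27 (61.4%), against 6.08%. The letters of the motifs do not overlap each other in the 3 promoters shown. These are printed because PLK1 had the largest growth of the group and CDC20 and BUB1B the smallest p, with TTTGAA and CCAAT, on either strand, in capitals.
CDC20 (chr1:43358731-43359030, plus strand): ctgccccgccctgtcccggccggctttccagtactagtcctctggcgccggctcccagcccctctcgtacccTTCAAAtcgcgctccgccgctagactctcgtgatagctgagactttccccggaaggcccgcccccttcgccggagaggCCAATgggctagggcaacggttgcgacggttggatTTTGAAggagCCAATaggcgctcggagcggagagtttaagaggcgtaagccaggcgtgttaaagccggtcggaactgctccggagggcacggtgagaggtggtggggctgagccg
PLK1 (chr16:23678639-23678938, plus strand): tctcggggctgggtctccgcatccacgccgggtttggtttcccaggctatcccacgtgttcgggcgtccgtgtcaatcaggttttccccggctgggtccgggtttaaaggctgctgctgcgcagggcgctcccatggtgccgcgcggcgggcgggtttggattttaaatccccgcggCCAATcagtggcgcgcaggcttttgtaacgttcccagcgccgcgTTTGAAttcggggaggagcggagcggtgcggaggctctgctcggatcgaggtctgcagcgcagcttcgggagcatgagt
BUB1B (chr15:40160819-40161118, plus strand): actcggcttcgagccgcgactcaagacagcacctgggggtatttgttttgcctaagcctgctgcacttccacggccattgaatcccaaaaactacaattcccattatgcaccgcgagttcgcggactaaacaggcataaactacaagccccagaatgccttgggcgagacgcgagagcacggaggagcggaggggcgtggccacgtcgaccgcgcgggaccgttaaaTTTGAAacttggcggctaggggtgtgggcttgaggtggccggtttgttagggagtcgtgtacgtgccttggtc
CDC20, which activates the anaphase-promoting complex, holds 2 TTTGAA and 2 CCAAT matches there. It had 128, 139 and 132 against 60.1, 52.9 and 62.6 CPM at 6 h and 166, 186 and 194 against 24.1, 23.4 and 23.9 CPM at 12 h. Controls rose and treated libraries fell, with growth of -1.75 (standard error 0.15, adjusted p = 6.99e-08, edgeR). PLK1, the polo-like kinase of mitotic entry, holds 1 match of each motif and had 64.9, 75.7 and 63.2 against 25.8, 18.9 and 25.3 CPM at 6 h and 91.9, 116 and 121 against 10.8, 11.9 and 10.7 CPM at 12 h. BUB1B, a kinase of the spindle checkpoint, holds 1 TTTGAA and no CCAAT and had 123, 99.6 and 102 CPM in the treated libraries of 6 h and 37.0, 33.2 and 31.8 CPM in those of 12 h. Its controls had no called change (-0.15, adjusted p = 0.20, edgeR), and growth was -1.51 (standard error 0.14). CDK1 (-0.58 and -0.69) and CDC25C (-0.75 and -0.81) were among 14 sustained decreases, and CDC25B was called at neither time (0.07 and -0.07).

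Replication genes divided. Of 53 genes of DNA replication and the G1/S transition, 12 rose (22.6%) and 17 fell (32.1%) at 6 h, and 12 rose (22.6%) and 28 fell (52.8%) at 12 h. Growth was called upward for 3 (5.66%) and downward for 20 (37.7%), against 10.3% and 13.6% of all genes tested. The median at 6 h was 0.01, with a sign that turned with the scaling (-0.01 with RLE size factors, 0.11 with library totals), and it was -0.39 at 12 h. ORC1, a subunit of the origin recognition complex, had 59.5 to 66.6 against 54.3 to 63.0 CPM at 6 h and 71.2 to 72.4 against 35.8 to 38.3 CPM at 12 h, with growth of -0.84 (standard error 0.11). WDHD1, a replisome factor, was amplified downward with growth of -0.92. The helicase genes MCM2 (0.27 and -0.41), MCM3 (0.04 and -0.42), MCM4 (-0.06 and -0.49) and MCM7 (0.06 and -0.76) were late decreases. MCM5 (0.59 and -0.25) and POLD1 (0.86 and -0.12) were early transient, and PCNA (0.66 and 0.85), E2F1 (0.54 and 0.91) and CCNE2 (0.43 and 0.75) sustained increases.
Of 22 replication-dependent histone genes tested, 1 rose at 6 h and 15 at 12 h, growth was called upward for 5, and the median went from 0.37 to 1.25. H3C6 had at most 0.949 CPM in any library of 6 h or any control of 12 h, and 3.81, 2.87 and 3.55 CPM after 12 h treatment. H2BC5 had 0.558 to 0.982 CPM and then 2.35, 2.41 and 3.43 CPM (adjusted p of growth 0.000151, edgeR). These levels are low, their transcripts mostly lack poly(A) tails, and the copies are alike enough for reads to be split among them.
In a list of 23 genes that handle nucleosides and fluoropyrimidines, growth was called upward for 2 (8.7%) and downward for 5 (21.7%). Over all genes tested these shares were 10.3% and 13.6%, which is close for a list of this size. SLC29A2, an equilibrative nucleoside transporter, was a late decrease, with 67.3, 79.8 and 98.1 against 29.6, 34.9 and 29.4 CPM at 12 h and growth of -1.19 (standard error 0.19). It was called also at 6 h with the GC curve taken off (-0.48, adjusted p = 7.06e-05, edgeR), as an amplified decrease. UCK2, which phosphorylates uridine and cytidine analogues, fell at both times (-0.59 and -1.07). TYMS, the target enzyme of fluorodeoxyuridine, was called at neither time (-0.03 and 0.15).

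**Figure D5:**
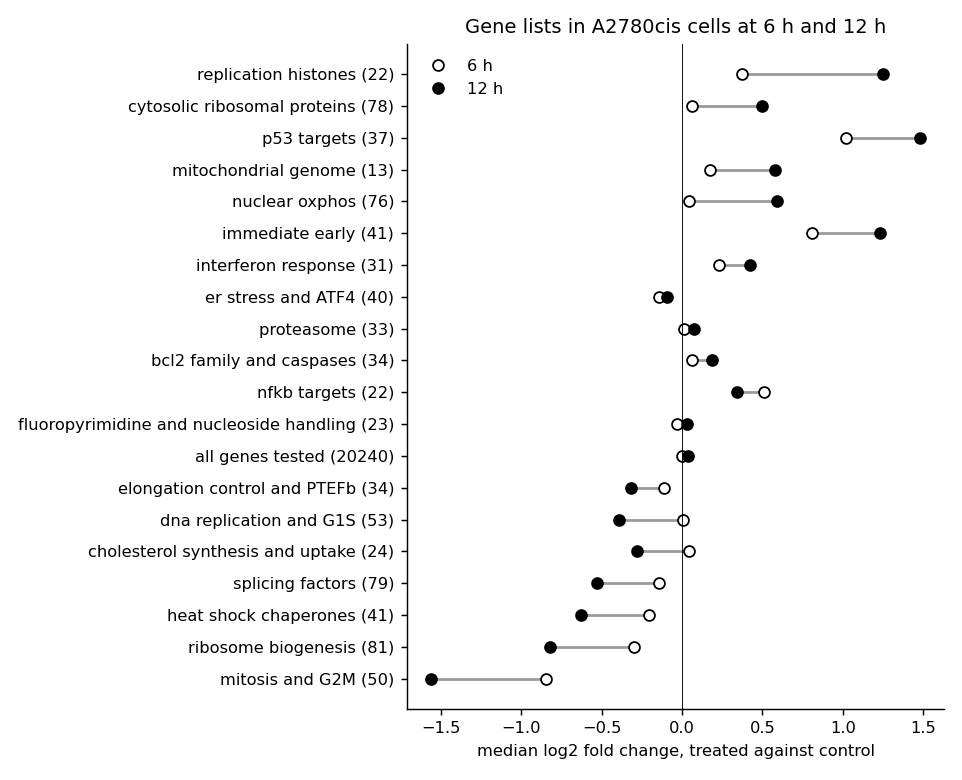
Median log2 fold change of treated against untreated A2780cis cells at 6 h (open points) and 12 h (filled points) for 19 gene lists and all genes tested, with the number of genes in brackets, ordered by median growth. Mitosis and ribosome biogenesis lie lowest at 12 h (-1.56 and -0.82), p53 targets and histones highest (1.48 and 1.25); snRNA genes are not drawn.

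Genes of ribosome biogenesis were mostly called lower at 6 h and more so at 12 h, while splicing factors were mostly called lower only at 12 h. Of 81 genes of ribosome biogenesis, 45 fell and 2 rose at 6 h, 72 fell and 3 rose at 12 h, growth was called downward for 51 and upward for 1, and the median went from -0.30 to -0.82. HEATR1, a factor of the small subunit processome, had 578, 588 and 498 against 444, 392 and 369 CPM at 6 h and 463, 436 and 407 against 161, 155 and 135 CPM at 12 h. Both arms were lower at 12 h, the treated one by far more (growth -1.07, standard error 0.14, adjusted p = 7.51e-06, edgeR). UTP20 of the same complex had growth of -1.10. Of the RNA polymerase I subunits, POLR1B was an amplified (-0.54 and -1.18) and POLR1A a late decrease (-0.26 and -1.25), FBL did not pass (0.01 and 0.02), and IMP3 reversed upward (-0.25 and 0.29).
Of 79 splicing factors, 28 fell and 5 rose at 6 h, and 56 fell and 9 rose at 12 h. Growth was called downward for 42 and upward for 2, and the median log2 FC went from -0.14 to -0.53. HNRNPDL had 340, 305 and 300 CPM in the treated libraries of 6 h and 89.9, 76.4 and 79.8 CPM in those of 12 h, over controls of 404 to 513 CPM. Its growth of -1.72 (standard error 0.13, adjusted p = 1.31e-08, edgeR) was the surest of the list. SF3B3 of the U2 particle had growth of -1.13. SRSF5 reversed upward (-0.33 and 0.42) and U2AF2 downward (0.39 and -0.38), and SNRPD2 rose late (0.20 and 0.79).
Of 34 genes of transcription elongation, 17 fell (50%) and 6 rose (17.6%) at 12 h, against 28.9% and 31% of all genes tested. Growth was called downward for 11 (32.4%) and upward for 2 (5.88%), against 13.6% and 10.3%. CDK12, a kinase of the RNA polymerase II tail, had 76.5, 68.2 and 68.7 CPM in the treated libraries of 6 h and 33.3, 35.6 and 23.9 CPM in those of 12 h, over controls of 101 to 157 CPM (adjusted p of growth 4.06e-05, edgeR). ELL3 rose late (0.10 and 1.32), and HEXIM1, an inhibitor of P-TEFb, was a sustained increase (0.56 and 0.86).

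Chaperone genes were lowered with delay. Of 41 heat shock and chaperone genes, 14 fell and 4 rose at 6 h, 28 fell and 3 rose at 12 h, growth was called downward for 23 and upward for 0, as by DESeq2 and at an unadjusted p under 0.05, and the median went from -0.21 to -0.63. The promoter of HSPA8, which had the largest decrease of the list at 12 h, is shown with the heat shock element letters GAANNTTC, which read the same on both strands, in capitals.
HSPA8 (chr11:123062087-123062386, minus strand): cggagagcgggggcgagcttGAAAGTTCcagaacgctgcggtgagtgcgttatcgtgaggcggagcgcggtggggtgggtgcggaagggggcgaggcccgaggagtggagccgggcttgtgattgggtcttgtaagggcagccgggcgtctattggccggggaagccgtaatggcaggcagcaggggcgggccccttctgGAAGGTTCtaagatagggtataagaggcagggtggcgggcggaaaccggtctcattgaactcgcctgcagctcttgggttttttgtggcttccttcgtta
It holds 2 matches, and of the 36 members with an entry 10 held at least 1 (27.8%), against 6.87% of all promoters. DNAJB1, an HSP40 partner of HSP70 without a match in its window, had 159, 160 and 164 against 136, 129 and 135 CPM at 6 h and 172, 182 and 188 against 68.7, 61.7 and 65.3 CPM at 12 h, with a called growth (adjusted p = 2.21e-07, edgeR). HSPH1 (-0.44 and -1.57) and CHORDC1 (-0.31 and -1.42) were amplified decreases too. HSP90AA1 (-0.10 and -0.23) and HSPD1 (-0.19 and -0.03) were called at neither time.
In the list for endoplasmic reticulum stress and ATF4, 7 of 40 grew upward (17.5%) and 4 downward (10%), and the median growth was 0.05, against 10.3%, 13.6% and -0.03 over all genes tested, shares that lie close to each other for a list of this size. HSPA5, the chaperone BiP, had 1197, 1120 and 1156 CPM in the treated libraries of 6 h and 592, 493 and 596 CPM in those of 12 h, over controls of 1506 to 1844 CPM. CEBPB, a transcription factor, was level at 6 h (4.11 to 4.90 against 3.72 to 4.99 CPM) and higher at 12 h (4.58 to 5.50 against 12.5 to 13.9 CPM). DDIT3 (0.06 and 0.89) and CHAC1 (0.48 and 1.62) were late increases too, NUPR1 (1.01 and 2.54) was amplified, and ATF4 itself was a sustained decrease (-0.46 and -0.39).
Proteasome genes showed 5 downward and 0 upward growth calls among 33 in edgeR's test, with PSMD14 amplified downward (growth -0.85) and PSMD11 late (growth -0.52). The downward share, 15.2%, was close to the 13.6% of all genes tested. Upward growth was found for 1 at an unadjusted p under 0.05 and for 0 by DESeq2. In cholesterol synthesis and uptake, 12 of 24 grew downward and 1 upward, with SQLE at 50.4, 45.5 and 44.8 CPM after 12 h treatment against 111 to 120 CPM in the controls (growth -0.80) and DHCR7 late (growth -1.03). TM7SF2, a sterol reductase, was the 1 late increase (0.39 and 1.35).

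Ribosomal protein and respiratory chain genes were mostly called higher at 12 h and not at 6 h, with growth called for fewer of them. These are shares of the counted RNA, and whether these transcripts rose per cell was not tested. Of 78 cytosolic ribosomal protein genes, 12 rose at 6 h and 63 at 12 h, and growth was called upward for 23. None fell or grew downward by edgeR, by DESeq2 or at an unadjusted p under 0.05 (0 each). Over time 40 of them fell and 12 rose in untreated cells, and 16 rose and 2 fell in treated cells. RPL39 had 515, 474 and 701 against 563.8, 512 and 497 CPM at 6 h and 428, 350 and 331 against 683, 474 and 793 CPM at 12 h, with growth of 0.92 (standard error 0.22, adjusted p = 0.00327, edgeR), and RPL21 of 0.75. Their spread between libraries was wide, and the number with upward growth moved with single libraries. It was 3 without replicate 3 and 41 without replicate 2 of the controls of 6 h, 8 and 11 without replicates 2 and 3 of the controls of 12 h, 45 and 5 without replicates 2 and 3 of the cells treated for 12 h, and 15 without replicate 1 of the controls of 6 h, replicate 3 of the cells treated for 6 h or replicate 1 of those treated for 12 h. It was 37 in the GC-corrected fit. Genes of this family have many processed pseudogenes that share reads with them.
Of 76 nuclear genes of oxidative phosphorylation, 13 rose and 1 fell at 6 h, 52 rose and 2 fell at 12 h, and growth was called upward for 30 and downward for 3, with medians of 0.04 and 0.59. NDUFB1 of complex I had 57.8 to 77.5 against 64.2 to 67.9 CPM at 6 h and 39.2 to 50.8 against 68.9 to 107 CPM at 12 h (growth 0.97, standard error 0.19), and SDHC of complex II had growth of 0.60. NDUFB7 was early transient (1.37 and 0.24), and CYC1 was a late decrease (0.30 and -0.36). All 13 protein-coding genes of the mitochondrial genome rose at 12 h and 1 of them at 6 h, growth was called for 7 upward and for 0 downward in edgeR's test, and 8 fell over time in untreated cells while 2 rose in treated ones. Downward growth was found for 0 also by DESeq2 and at an unadjusted p under 0.05. The share of all counts was taken over every gene on the mitochondrial chromosome, and not over these 13 alone. It was 5.90% to 6.24% in the controls of 6 h and 7.18% to 7.61% after treatment. At 12 h it was 5.10% to 5.43% in the controls and 8.79% to 9.94% after treatment. MT-ND6, on the light strand, had 767 to 866 CPM after 6 h treatment and 966 to 1324 CPM after 12 h, with growth of 0.73.

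Inflammatory and apoptosis lists had growth calls in both directions. Of 22 NF-κB targets, 5 grew upward (22.7%) and 3 downward (13.6%), against 10.3% and 13.6% of all genes tested. LIF, a cytokine gene, had 4.71 to 5.32 against 17.4 to 22.4 CPM at 6 h and 4.04 to 5.25 against 38.7 to 48.9 CPM at 12 h (growth 1.30, standard error 0.20), while NFKB2 was early transient (0.66 and -0.13) and NFKB1 fell further (-0.54 and -1.16). Of 31 interferon response genes, 7 grew upward (22.6%) and 2 downward (6.45%), with USP18 late (growth 0.88) and STAT2, a subunit of the ISGF3 factor, amplified (growth 0.61). USP18 was called also at 6 h under the GC curve (0.44, adjusted p = 0.0218, edgeR) and then counted as amplified. ISG15 was sustained (1.29 and 1.18), and IFIT1 (-0.59 and -0.40) and IFIT3 (-0.55 and -0.58) were sustained decreases. Of 34 genes of the BCL2 family and caspases, 5 grew upward (14.7%) and 2 downward (5.88%), near or below the 10.3% and 13.6% of all genes tested. PMAIP1, which encodes the BH3-only protein NOXA, had 22.8, 29.0 and 24.8 CPM in the treated libraries of 6 h and 71.2, 67.5 and 49.99 CPM in those of 12 h, over controls of 7.02 to 9.61 CPM (growth 1.48, standard error 0.22). CASP10, an initiator caspase, had growth of 1.15. Among pro-survival members, BCL2L1 was a late decrease (-0.03 and -0.59) and BCL2 a sustained one (-0.57 and -0.72).
Of 13 snRNA genes, whose products lack poly(A) tails, 10 were called higher at 6 h and 13 at 12 h, with median log2 FC of 6.05 and 4.94. The rise at 6 h came mostly from replicates 1 and 2 of the treated cells. RNU1-1 had 10.36 and 10.15 CPM there, 0.1414 CPM in replicate 3 and at most 0.2245 CPM in controls. 5S rRNA was low in that replicate too. In A2780cis at 12 h, RNU1-1 had 3.50 to 6.17 CPM after treatment. There 5S rRNA took 0.0162% to 0.0265% of the counts after treatment, against 1.74e-04% to 3.13e-04% in the controls. In A2780 at 12 h, 5S rRNA did not follow treatment. It took 3.41e-04%, 0.0168% and 0.0101% of the counts in the A2780 controls and 0.0163%, 0.00129% and 5.01e-04% after treatment. Whether the snRNA differences go with treatment or with the library was not tested. Growth was called upward only for RNU6-1, which had 0.330 to 0.478 CPM in treated libraries of 6 h and 1.09 to 1.496 CPM in those of 12 h. RNU6-1 has many near-identical copies, and its call was lost with DESeq2, after thinning, and without replicate 3 of the controls or of the treated cells of 6 h.

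Long genes lost more and lost it progressively. Among 2728 protein-coding genes with a span over 100 kb, the median effect was -0.32 at 6 h and -0.61 at 12 h, 58.9% fell at 12 h, and growth was called downward for 27.3% and upward for 4.29%. Among 2629 genes under 10 kb the medians were 0.20 and 0.28, and growth was called downward for 9.78% and upward for 15.2%. Genes are not replicates, and no test was made across them. With the GC curve taken off, the median growth was -0.24 over 100 kb and 0.21 under 10 kb, against -0.30 and 0.04 without it. Of the classes, the amplified downward genes had the longest median span.

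Growth in A2780cis differed from that in A2780 for few genes in the test of the difference itself. It was called for 87 genes (0.43%), 30 with a larger (0.148%) and 57 with a smaller value in A2780cis (0.282%), and 58 of them were among the 4852 genes with called growth (1.2%). In A2780 growth was called for 4793 genes (23.7%, 10.7% upward and 13% downward). MYO6, which encodes the myosin that moves toward the minus end of actin, had 89.6, 103 and 83.8 against 77.1, 67.9 and 70.2 CPM at 6 h and 75.1, 72.8 and 66.7 against 43.3, 35.9 and 29.98 CPM at 12 h in A2780cis. Its growth was -0.61 there and 2.77 in A2780 (difference -3.38, adjusted p = 0.00326, edgeR). The decrease of MYO6 at 6 h in A2780cis was not called with the GC curve taken off (-0.19, adjusted p = 0.13, edgeR), which made it late. BIRC3, the apoptosis inhibitor cIAP2, grew in both lines, by 1.12 in A2780cis and 3.12 in A2780 (difference -2, adjusted p = 0.00517, edgeR). CDKN1A grew by 1.26 in A2780cis, while its growth of 0.27 in A2780 was not called (adjusted p = 0.177, edgeR). The difference was 0.99 (adjusted p = 0.0335, edgeR). The mitotic genes CDC20 and BUB1B had lower growth in A2780cis than in A2780, with differences of -0.97 and -1.04. The count of 87 moved with the setting, from 23 at a threshold of 0.01 to 741 with the GC curve taken off, and single libraries moved it from 37, without replicate 1 of the A2780cis cells treated for 6 h, to 376, without replicate 2 of those treated for 12 h.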

How the data were processed

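Total RNA of the 24 libraries was sequenced after the TruSeq Stranded Total RNA protocol (per the labels, single reads of 75 bases, while the study's methods describe paired ends). The deposited table holds expected counts per gene, made by the authors with STAR 2.5.2b and featureCounts on GRCh38.p7. Between 9.499% and 12.75% of its entries per library are not whole, which is why they are treated as estimated counts, and they were rounded here. The study describes fractional counting of reads with several alignments. The strand setting is not given in the sources used here, so that overlapping and antisense genes are uncertain. Of 63299 genes, 56948 matched GENCODE 44, which gave biotype, span and GC share.

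Genes with enough counts (filterByExpr, minimum 10 and total 15) numbered 20240. They were fitted over all 24 libraries with 1 coefficient per group (16 residual degrees of freedom) in edgeR 4.0.16 (R 4.3.3, limma 3.58.1) with TMM factors. Growth was tested as a single contrast with the quasi-likelihood test and an adjusted p threshold of 0.05, and standard errors were taken from log2 FC and F. On simulated data for response growth in A2780cis over 19603 genes, 81 of 100 changes of 1 and 100 of 100 changes of 2 on the log2 scale were recovered, and 13 of 19403 unchanged genes were called. The changed genes were drawn from better-counted genes, and the simulated counts held no other change with time or treatment and no shift with GC. Recovery among genes of low counts and false calls under such shifts were not tested. Reads carry no molecular identifiers, so that intervals cover no error beyond the spread between these libraries.

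For each class and direction the 3 protein-coding genes with the largest growth are named (for sustained genes the largest effect), if their average level over the 12 libraries reached 3 (log2 CPM) and treated and control libraries were fully apart at each time that the class needs. From each list up to 2 members with the smallest p for growth are named, beside CDKN1A and GADD45A and the 3 genes per direction that differ most between the lines. Genes named beyond this rule were chosen after their values were seen. The members, lists and tests were chosen with earlier results of these data known, and some genes of the rule are not reported here.

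Alternatives were RLE size factors, library totals, no filter, unrounded counts, a replicate block, A2780cis alone, DESeq2 1.42.0, removal of lncRNA and rRNA genes, thinning to 11077060 counts, a threshold of 0.01, a wider bound for sustained genes, each A2780cis library left out, and, chosen after seeing the data, a GC offset per library. Same-numbered libraries formed 18 pairs whose deviations correlated at -0.401 to 0.649, with 10 over 0.1, so that the numbers were not taken as pairs for growth, which needs all 4 groups. Between control and treated libraries of 12 h the 3 same-numbered pairs all exceeded 0.1 (0.649, 0.338 and 0.104). Control replicate 3 correlated at 0.491 with treated replicate 2, so that whether numbers pair these 2 groups was not settled. The replicate block called 12298 effects at 12 h, against 12127. Promoters came from RefSeq (GRCh38.p14). Figures were drawn with matplotlib 3.10.9.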

Additional observations from a re-analysis of the deposited data

Results flagged for a closer look

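Of the genes named, 12 differed in growth between A2780cis and A2780 in edgeR's test of the difference. Growth was larger in A2780cis, on the log2 scale, for TMEM203 by 0.924, RTL6 by 1.09, CDKN1A by 0.988, CEMIP2 by 2.24, DSEL by 1.67 and the histone gene H4C9 by 1.53. H4C9 was late in A2780cis, and with the GC offset its effect at 12 h was not called (0.57, adjusted p = 0.0521, edgeR), while its growth was (1.23). It was smaller for CDC20 (-0.973), BUB1B (-1.04), HNRNPDL (-0.969), BIRC3 (-2), MYO6 (-3.38) and CAMK4 (-5.74). The difference was tested with 3 libraries per group and 1 line of each kind.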

How the results depend on the processing

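At a threshold of 0.01, growth was called for 2548 genes (1025 up, 1523 down), the effect at 6 h for 3802, the change of untreated cells for 5113 and the difference between lines for 23. The classes then held, up and down, 778 and 795 late, 190 and 659 amplified, 36 and 26 early transient, 0 and 9 receding and 8 and 4 reversed genes, 1100 sustained increases and 694 sustained within the bound. A bound of log2 of 2 at the threshold of 0.05 gave 2444 sustained within it, against 1147. With the GC offset, 3356 genes grew upward, 2768 changed in untreated cells, and amplified upward genes numbered 906, receding 10 up and 78 down, reversed up 74 and early transient down 151. Without a filter early transient genes numbered 394 up and 42 down, receding up 37, reversed up 11 and reversed down 166. With library totals receding genes numbered 2 up and 16 down and reversed up 28, with A2780cis alone 2 and 14, with 17 reversed up and 47 early transient down. Without lncRNA and rRNA genes 28 were reversed up and 46 early transient down. Receding upward genes numbered 3 with RLE factors and with DESeq2 and 1 after thinning. The difference between lines was called for 331 genes with library totals, 287 without a filter, 262 with DESeq2, 185 without lncRNA and rRNA genes and 741 with the GC offset. The replicate block gave 5109 growth calls (4852 without it), 6483 effects at 6 h (6212), 12298 at 12 h (12127) and 146 differences between lines (87). The causes were not tested.

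Leaving out 1 library gave 3641 to 5483 growth calls (1438 to 2418 up, 2203 to 3065 down), 4372 to 6490 effects at 6 h, 11077 to 12209 at 12 h, 8341 to 10110 changes of treated and 5060 to 8445 of untreated cells, the lowest without replicate 3 of the controls of 12 h, and 37 to 376 differences between lines. Late genes numbered 1038 to 1769 up and 948 to 1598 down, amplified 276 to 443 and 940 to 1352, early transient 62 to 281 and 37 to 109, receding 0 to 6 and 16 to 24, reversed 23 to 47 and 13 to 77, sustained 1317 to 1817 and 1263 to 1869, of which 692 to 1210 lay within the bound. The growth of VAV2 turned positive after thinning (0.05684), with the GC offset (0.1688) and in 3 of 12 fits that left out a library (range over the 12, -0.3152 to 0.1238), and that of SOX8 with the GC offset (0.1876). Library totals put the median of all genes at 0.10 at 6 h and 0.15 at 12 h, against 0.00 and 0.04 with TMM.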
